A study of Mus musculus with 4 samples.

Results

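Gm266 and H1f0 are 2 of the 31053 genes counted in single thymocytes of a mouse model of T-cell acute lymphoblastic leukemia (T-ALL), and both were chosen for levels in leukemic cells far above those in preleukemic cells. Levels were read in all 4 libraries in cells with more than 500 genes and under 10% mitochondrial transcripts. The libraries, made with the 10x Genomics 3′ assay, came from thymi of FVB/N mice, 1 of each mouse. The wild type (WT) mouse was 6 weeks old and carried no transgene, the preleukemic mouse was a Tal1/Lmo2 transgenic of 6 weeks, and the mice with leukemia, T-ALL#1 and T-ALL#2, were Tal1/Lmo2 transgenics of 3 months. In this line the proximal Lck promoter, which is active in immature thymocytes, drives both oncogenes. All thymi were dissociated, freed of red cells and sorted for viable cells. With 1 WT and 1 preleukemic mouse, differences among these libraries have no replicate check, and age cannot be told apart from leukemia.

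H1f0 encodes the linker histone H1.0. Linker histones bind the DNA where it enters and leaves the nucleosome and help to compact chromatin. Most of them, the Hist1h1 genes, are made during S phase from transcripts that largely lack a poly(A) tail, whereas H1f0 is transcribed outside the histone clusters into polyadenylated RNA independently of replication, and is known for its accumulation in differentiated and resting cells. Gm266 is a predicted gene with an open reading frame, named by number only, and no function is stated for it here. Tal1 and Lmo2 are transcriptional regulators of blood stem and progenitor cells that are silenced in normal thymocyte development, and Notch1 signaling, which commits progenitors to the T lineage, is often activated in T-ALL.

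Kept cells numbered 4220 (WT), 5576 (preleukemic), 5773 (T-ALL#1) and 1975 (T-ALL#2), and held 24042062, 40851235, 70745712 and 36236569 unique molecular identifiers (UMIs, each 1 captured transcript). Median depth per cell ranged from 3800.5 UMIs in WT to 17581 in T-ALL#2. The 5 T-lineage markers (Cd3d, Cd3e, Cd3g, Lck and Thy1) were detected in every library, with a summed level of 2604 to 4263 CPM (UMIs per 1000000 UMIs of the library). Tal1 was at 0 UMIs in WT and at 410, 68.3 and 234 CPM in the preleukemic, T-ALL#1 and T-ALL#2 libraries. Xist, expressed from the inactive X chromosome, was at 1380, 1869, 1932 and 0.0828 CPM from WT through T-ALL#2, and Y-linked genes held 1, 5, 1 and 4413 UMIs in that order. These values go against the male sex on the labels of the WT and preleukemic libraries, so each of them is the library labelled WT or preleukemic throughout. At most 9 cell barcodes were shared by a pair of libraries (0.253% of the cells of a library or less).

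In the GENCODE annotation of mouse build GRCm38, Gm266 (ENSMUSG00000010529) is a protein-coding gene on the minus strand at chr12:111484609-111485823. It has 1 transcript of 1 exon, 1215 bases long with a coding length of 600 bases, and 57.5% of its bases are G or C. The whole gene lies within Gm40578, a longer noncoding gene of the same strand. H1f0 (ENSMUSG00000096210) is at chr15:79028450-79030504 on the plus strand, also as 1 transcript of 1 exon, with 2055 bases and a coding length of 582 bases. The noncoding gene Gm49544 overlaps its start on the minus strand. Of 21951 protein-coding genes, 1331 (6.06%) have single-exon transcripts alone. Both transcripts hold a polyadenylation signal (AATAAA) in their last 40 bases, the end that the 3′ assay captures.

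The stretches of 250 bases before the RefSeq starts of both genes are printed because both genes stood higher in the leukemias, and in them capitals mark matches to short motifs of factors active in this model. The motifs, read on both strands, were the E-boxes CAGCTG and CAGATG, to which TAL1 and its E-protein partners bind, the GATA motif AGATAA, the core TGGGAA of the Notch effector RBPJ, and the GC box GGGCGG. The Gm266 stretch is chr12:111485824-111486073 (minus strand) and the H1f0 stretch chr15:79027962-79028211 (plus strand, GRCm38.p6). None of the matches overlap.

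Gm266: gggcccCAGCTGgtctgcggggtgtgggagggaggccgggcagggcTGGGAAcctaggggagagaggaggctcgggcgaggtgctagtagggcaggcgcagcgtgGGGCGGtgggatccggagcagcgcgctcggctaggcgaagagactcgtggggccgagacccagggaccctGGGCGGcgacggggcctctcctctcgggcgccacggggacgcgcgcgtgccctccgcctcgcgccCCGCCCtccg

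H1f0: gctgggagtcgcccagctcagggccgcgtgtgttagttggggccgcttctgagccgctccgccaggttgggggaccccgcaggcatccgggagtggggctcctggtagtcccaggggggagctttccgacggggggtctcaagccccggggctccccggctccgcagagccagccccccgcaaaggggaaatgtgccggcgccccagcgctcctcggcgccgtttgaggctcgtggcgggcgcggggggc

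The Gm266 stretch holds 1 CAGCTG, 244 bases before the start, 1 TGGGAA and 3 GC boxes, and no match to the other motifs. The H1f0 stretch holds none of the 5. Among 32851 RefSeq promoters read over the same 250 bases, 13.0% hold CAGCTG, 14.4% CAGATG, 9.99% AGATAA, 21.6% TGGGAA and 32.7% GGGCGG. Both stretches are rich in G and C, at 76.8% for Gm266 and 74.4% for H1f0, above 97.2% and 95.4% of promoters. The GENCODE start of H1f0 lies downstream of the RefSeq start, so its stretch ends before both.

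Gm266 was a leukemic transcript in these libraries. It held 0 UMIs in WT, which allows up to 0.125 CPM, the level of 3 UMIs, and 20 UMIs or 0.490 CPM (exact Poisson 95% interval 0.299 to 0.756) in the preleukemic library. The same limit of 3 UMIs or cells, for counting error only, stands for every count of 0 given a limit or a ratio here. T-ALL#1 held 23882 UMIs of it or 338 CPM (333 to 342), and 8366 UMIs or 231 CPM (226 to 236) were counted in T-ALL#2. The leukemic mean was 284 CPM ± 75.5 (SD, n = 2), and no interval overlapped another. Relative to the preleukemic library the leukemic levels were 690-fold (446 to 1129) and 472-fold (305 to 772) higher, and relative to WT, with its count of 0 set to 3 UMIs, at least 2705-fold and 1850-fold higher. These intervals cover counting error only. Because the genes were chosen on this contrast, no test was made of it.

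H1f0 followed another course, with a lower level in the preleukemic library than in WT. WT held 595 UMIs or 24.7 CPM (22.8 to 26.8), the preleukemic library 261 UMIs or 6.39 CPM (5.64 to 7.21), T-ALL#1 10045 UMIs or 142 CPM (139 to 145) and T-ALL#2 2849 UMIs or 78.6 CPM (75.8 to 81.6). The preleukemic level was 3.87-fold lower than WT (3.34 to 4.50), and the leukemic levels, 110 CPM ± 44.8 on average (SD, n = 2), were 5.74-fold and 3.18-fold above WT and 22.2-fold and 12.3-fold above preleukemic. T-ALL#1 exceeded T-ALL#2 by 1.81-fold for H1f0 and by 1.46-fold for Gm266.

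**Figure D1:**
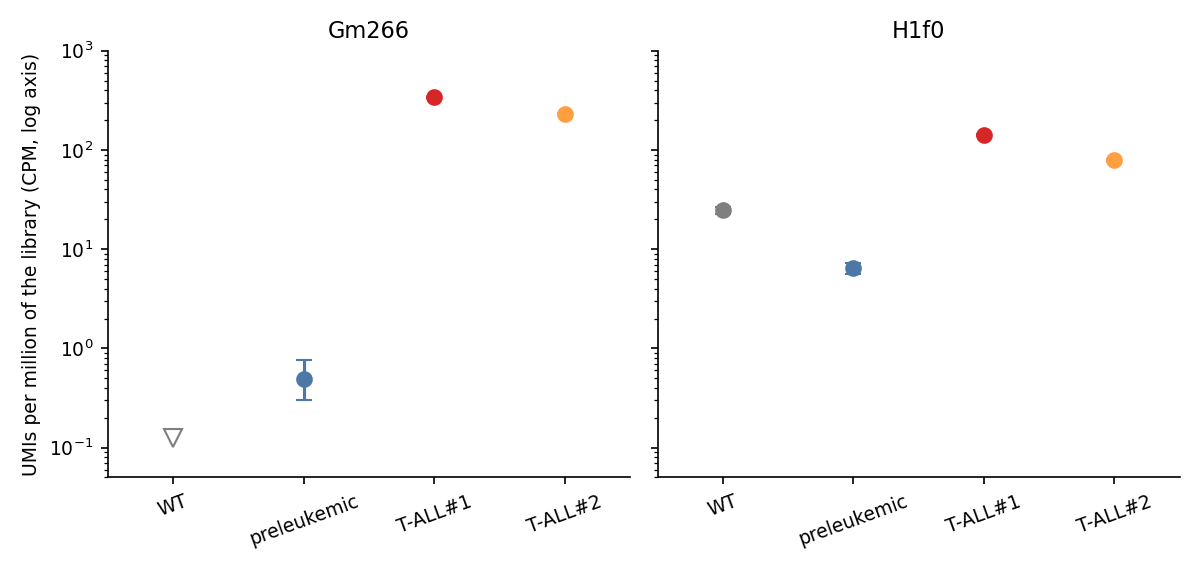
CPM of Gm266 (left) and H1f0 (right) in each library on a log axis, with exact Poisson 95% intervals as bars, hidden behind the points where they are narrow. The open triangle marks 0.125 CPM, the level of 3 UMIs, for Gm266 in WT, where no UMI was found, and both genes sit highest in T-ALL#1 and T-ALL#2 while H1f0 is lowest in the preleukemic library.

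Of 15118 genes with at least 10 UMIs over the libraries, 738 (4.88%) exceeded the preleukemic level at least 2-fold in both leukemias and 121 (0.800%) at least 10-fold higher. Against WT, 764 (5.05%) were at least 2-fold higher in both. The course of H1f0, at least 2-fold down from WT to preleukemic and at least 2-fold up from both in the leukemias, was shared by 94 genes (0.622%). Gm266 was the 1 gene with 0 UMIs in WT and at least 100 CPM in both leukemias. The 1558 genes at 100 CPM or more in a leukemia were ordered by the smaller of their ratios to the preleukemic library. Ahead of all others stood Gm266 and, with 0 preleukemic UMIs, Iltifb and Il22, a cytokine gene and its near-identical copy between which reads may be split. The ratios of Iltifb (at least 2039-fold and 304-fold) and Il22 (at least 1439-fold and 107-fold) are lower bounds, which exceeded the ratio of Gm266 in T-ALL#1, so these genes and Gm266 cannot be ranked against each other. In CPM, Il22 and Iltifb reached 106 and 150 in T-ALL#1 but 7.86 and 22.4 in the other leukemia, whereas Gm266 stood above 100 CPM in both. Then came the Notch target Hes1 (72.6-fold and 48.4-fold), H1f0, and Dtx1, another Notch target (21.5-fold and 10.7-fold).

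Most leukemic cells held a Gm266 transcript. A UMI of it was found in 75.7% (T-ALL#1) and 85.7% (T-ALL#2) of cells, against 0.143% of preleukemic cells (8 of 5576) and 0 of 4220 WT cells, which allows a share of up to 0.0711% (3 of them). Because depth differed, each cell was thinned to 2000 UMIs, leaving out 991 WT, 350 preleukemic, 94 T-ALL#1 and 0 T-ALL#2 cells under that depth. The thinned share was 45.8% (44.5 to 47.1) for T-ALL#1 and 37.1% (35.0 to 39.3) for T-ALL#2, with a leukemic mean of 41.5% ± 6.17 (SD, n = 2), against 0.0765% of preleukemic cells and 0 of 3229 WT cells. If every cell had held the same level, Poisson counts would have given 55.4% and 38.7%. The level thus varied more between the cells of T-ALL#1, where the variance of the thinned counts was 1.59 times their mean, than between those of T-ALL#2, where it was 1.11 times.

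H1f0 was found in fewer leukemic cells than Gm266, but in more WT and preleukemic cells. Before thinning it was detected in 7.91% of WT, 3.12% of preleukemic, 50.6% of T-ALL#1 and 56.5% of T-ALL#2 cells. After thinning the shares were 3.81% (3.18 to 4.53), 1.17% (0.894 to 1.50), 21.5% (20.4 to 22.6) and 14.1% (12.6 to 15.7), and the order WT above preleukemic, and both leukemias above WT, was that of the CPM. The top 1% of cells held 34.6% of H1f0 UMIs in WT and 54.8% in the preleukemic library, with up to 17 and 12 UMIs in a cell, but 11.9% and 10.6% in T-ALL#1 and T-ALL#2. Such a share is high wherever few cells hold a UMI. The variance of the thinned counts was 1.55, 1.25, 1.46 and 1.21 times their mean from WT to T-ALL#2.

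Transcripts free in the cell suspension were read in barcodes of T-ALL#2 with under 100 UMIs, which the other matrices do not hold. Gm266 was at 186 CPM there, 80.5% of its level in T-ALL#2 cells, and H1f0 at 55.7 CPM, 70.8% of its level. Cd4, Il2ra and Hes1, read beside them, were at 75.7%, 72.3% and 83.9% of theirs, and Tal1 at 242%. Cells with at least 4 B-like or myeloid-like markers served as cells of other types. Among them, a Gm266 UMI was found in 0 of 11 in WT, 0 of 25 preleukemic, 4 of 16 T-ALL#1 (25.0%, median depth 4303 UMIs) and 0 of 10 T-ALL#2 cells (median 4979.5 UMIs). H1f0 was found in 2, 2, 2 and 1 of the same cells. In the preleukemic library 1 such cell held 12 of the 261 H1f0 UMIs, and the level without cells of other types was 6.07 CPM.

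The coreceptors Cd4 and Cd8a mark the stages of thymocytes, from double-negative cells, of which the DN3 stage carries Il2ra (CD25), to double-positive and single-positive cells. Gm266 was present in every coreceptor group of the leukemias. Among double-negative cells with Il2ra it was at 335 CPM in T-ALL#1 and 239 CPM in T-ALL#2, and among double-negative cells without Il2ra at 242 and 156 CPM, the lowest of the 5 groups in both leukemias. Cells with Cd8a alone had 325 and 231 CPM, cells with Cd4 alone 363 and 227 CPM, and double-positive cells 387 and 256 CPM, the highest in both. This rank was not separated from its neighbors, since the interval of the double-positive group overlapped that of the Cd4 group in T-ALL#1 (378 to 395 and 345 to 382 CPM) and those of the Cd4 (206 to 249) and double-negative Il2ra groups (230 to 249) in T-ALL#2 (239 to 273). The 20 preleukemic UMIs fell on double-negative cells without Il2ra (8 UMIs), Cd8a cells (11) and double-positive cells (1), with 0 UMIs in the 465 double-negative cells with Il2ra, which allows up to 0.524 CPM.

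H1f0 in WT was highest in the 54 double-negative cells with Il2ra, at 48.9 CPM (34.6 to 67.1, 38 UMIs). Double-positive cells followed, at 30.2 CPM (27.1 to 33.7). Double-negative cells without Il2ra and Cd4 cells were both at 19.7 CPM and Cd8a cells at 15.9 CPM, and their intervals overlapped. With gates set after thinning, the double-negative Il2ra group was at 35.5 CPM (59 cells) and the double-positive group at 31.2 CPM. In the preleukemic library the double-negative Il2ra group was at 4.37 CPM (2.83 to 6.45, 25 UMIs), a ratio to WT of 0.0893 (0.0517 to 0.152). Gated after thinning, the same group was at 5.28 CPM, a smaller drop from the 35.5 CPM of WT. The other ratios lay between 0.244 in Cd4 cells (0.0292 to 0.901, 2 UMIs), whose interval held that of the double-negative Il2ra group, and 0.544 in double-positive cells (0.368 to 0.779, 33 UMIs). The drop in double-positive cells depended on the gate, for among the 70 preleukemic double-positive cells gated after thinning H1f0 was at 32.8 CPM, against 31.2 CPM in WT.

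In the leukemias H1f0 lay between 119 and 205 CPM in the groups of T-ALL#1 and between 68.3 and 97.9 CPM in those of T-ALL#2. Cd4 cells were highest in both, but gated after thinning they were level with double-positive cells in T-ALL#1, at 156 and 157 CPM. The leukemic level was 2.42-fold (1.75 to 3.45) and 1.64-fold (1.18 to 2.33) that of WT in double-negative cells with Il2ra, and 4.65-fold (4.15 to 5.22) and 2.62-fold (2.22 to 3.09) that of WT in double-positive cells, so that the intervals overlapped in T-ALL#2. After thinning, these groups of T-ALL#2 were at 83.7 and 72.6 CPM against 35.5 and 31.2 CPM in WT, which leaves no order between them. In Cd4 cells the leukemic level was 10.4-fold and 4.96-fold that of WT, with intervals that overlapped those of Cd8a cells (8.42-fold and 4.84-fold). A group defined by a gene not detected holds more cells where depth is low.

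**Figure D2:**
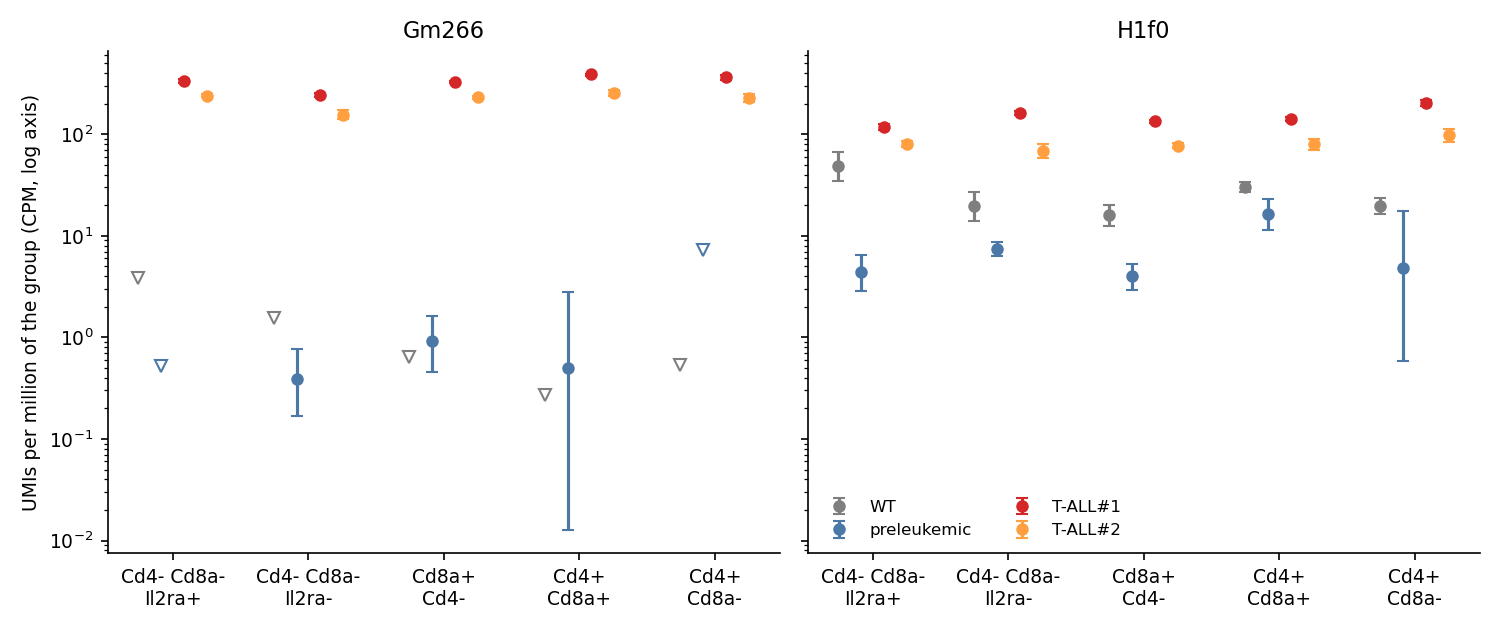
CPM of Gm266 (left) and H1f0 (right) on a log axis in 5 groups of cells by detection of Cd4, Cd8a and Il2ra, for each library, with exact Poisson 95% intervals as bars and open triangles at the level of 3 UMIs where no UMI was found. Gm266 is high in all leukemic groups alone, and H1f0 in WT is highest in the 54 double-negative cells with Il2ra, at 48.9 CPM (38 UMIs). With gates set after thinning, that group is at 35.5 CPM, against 31.2 CPM in double-positive cells.

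Double-positive and Il2ra double-negative cells of the leukemias were compared by edgeR's quasi-likelihood test on UMIs summed per leukemia and group, over 16275 genes. Neither gene passed. The fitted log2 difference was 0.07 for Gm266 (95% interval -0.39 to 0.54, adjusted p = 0.971) and 0.06 for H1f0 (-0.41 to 0.53, adjusted p = 0.975). Of all genes 5 were called (0.0307%), and 2148 (13.2%) when the leukemia was a replicate block, in which neither gene passed either (adjusted p = 0.829 and 0.874 by the same edgeR test).

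Cycling cells, those with a UMI of Mki67 or Top2a, made up 20.6% of WT, 23.8% of preleukemic, 47.9% of T-ALL#1 and 61.9% of T-ALL#2 cells, and were deeper than the others, with a median of 18481 against 4788 UMIs in T-ALL#1 and 22654 against 11194 in T-ALL#2. Cycling cells of T-ALL#1 had 307 CPM of Gm266 and non-cycling cells 419 CPM, a log2 difference of -0.45 (-0.49 to -0.41), and the corresponding levels in T-ALL#2 were 218 and 270 CPM, a log2 difference of -0.31 (-0.38 to -0.24). Within groups, non-cycling double-positive cells were highest in both leukemias, at 511 CPM (495 to 527) in T-ALL#1, with 297 CPM (265 to 331) in T-ALL#2, where other non-cycling groups overlapped it. For H1f0 the cycling and non-cycling levels were 137 and 154 CPM in T-ALL#1, and 79.6 and 75.6 CPM in T-ALL#2 (log2 -0.17 and 0.07), so the leukemias lay on either side of no difference. In the cycling contrast of 17899 genes by edgeR, 408 were called (2.28%), or 4339 (24.2%) with a replicate block. Neither gene passed. The fitted log2 difference was -0.21 for Gm266 (-0.83 to 0.41, adjusted p = 0.869) and 0.11 for H1f0 (-0.55 to 0.78, adjusted p = 0.919), on the TMM scale. That scale placed cycling cells 0.17 higher than CPM did on average over the leukemias. In T-ALL#1 alone the log2 difference of H1f0 was -0.17 by CPM and 0.09 by TMM. With the block, which pairs the sums of a leukemia, the intervals were -0.59 to 0.16 for Gm266 and -0.2 to 0.44 for H1f0. The adjusted p by edgeR was then 0.54 and 0.712.

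Other linker histones moved with the cycle. Of 10 in the list 9 could be tested, and 4 rose in cycling cells where 2.09% of all genes did, with a median log2 difference of 1.66 against 0.02 over all genes. Hist1h1b rose most, by 3.89 on the log2 scale (SE 0.329, adjusted p = 0.000127), with 834 against 66.8 CPM in T-ALL#1 and 656 against 46.7 CPM in T-ALL#2. Hist1h1a rose by 3.34 (adjusted p = 8.46e-05), Hist1h1d by 1.68 (adjusted p = 0.00272) and Hist1h1e by 1.66 (adjusted p = 0.0134), and of these 4, Hist1h1a and Hist1h1b alone passed with edgeR's own filter on low counts (adjusted p = 0.0457 for both). Hist1h1c, at 0.37 (adjusted p = 0.672), and H1fx, another replication-independent member, at 0.49 (adjusted p = 0.957), did not pass, and H1fx passed with the block (adjusted p = 2.72e-05). Whether H1f0 differs from them in its response was not tested.

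**Figure D3:**
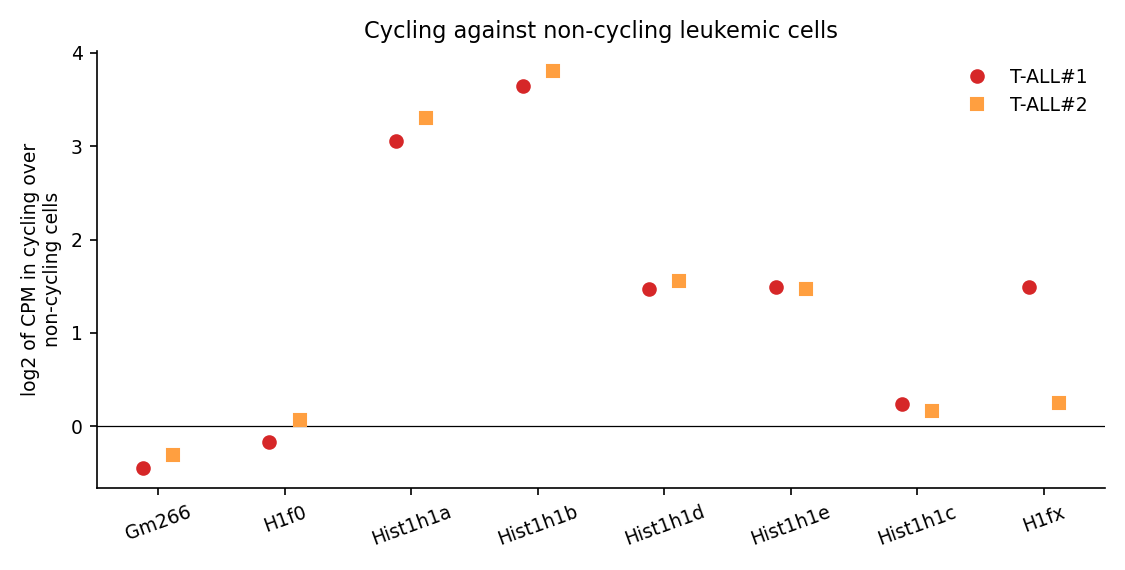
Log2 of the CPM in cycling over that in non-cycling cells of T-ALL#1 (circles) and T-ALL#2 (squares) for Gm266, H1f0 and the 6 other linker histones with more than 100 UMIs. Gm266 sits below 0 in both, H1f0 on either side of 0, and Hist1h1a, Hist1h1b, Hist1h1d and Hist1h1e between 1.47 and 3.81.

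The linker histones other than H1f0 did not share its gain over the preleukemic library. Their ratios to it ranged from 0.846 to 1.83 in T-ALL#1 and from 0.653 to 1.47 in T-ALL#2 for the 5 Hist1h1 genes above 50 CPM, none of which was 2-fold higher in both by CPM, while Hist1h1b was, as a mean over cells or with TMM factors between libraries (2.19-fold and 2.08-fold). H1fx lay on either side of its preleukemic level of 20.4 CPM, with 10.7 CPM in T-ALL#1 and 59.3 CPM in T-ALL#2. Hist1h1t, H1foo and H1fnt, which are expressed in germ cells, held at most 6 UMIs in any library, and Hils1 held 0. Because the assay captures poly(A) tails, levels of Hist1h1 genes may stand for a part of their RNA.

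In other gene lists of the cycling contrast, 1 of 7 replication-independent core histones rose, H2afx (log2 1.95, adjusted p = 0.0037), where 2.09% of all genes rose and 0.190% fell. With the block, in which 13.8% of all genes rose and 10.5% fell, 3 of the 7 rose, with H2afz (adjusted p = 3.58e-11) and H2afv (adjusted p = 4.38e-06) added. Of 10 Notch genes 0 were called by edgeR (1 at an unadjusted p under 0.05, Dtx1, log2 -0.90). With the block 2 were higher, among them the Notch feedback inhibitor Nrarp (log2 0.92), and 5 lower. Of 12 antiproliferative and quiescence genes, the cyclin-dependent kinase inhibitor Cdkn2c rose by 1.33 (adjusted p = 0.0314) and the metabolic regulator Txnip fell by 1.47 (adjusted p = 0.0416), with a list median of -0.89, and with the block 2 rose and 9 fell.

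H1f0 belongs to the signature of label-retaining cells that the study took from published data on human acute lymphoblastic leukemia. Of the 161 tested members of that signature 5 fell, S100a6, Arid5b, Ipcef1 and Mylip among them, and 0 rose, and their median was -0.36. With the block 57 fell and 8 rose, where 10.5% of all genes fell and 13.8% rose, and H1f0 was in neither set. With edgeR's own filter on low counts 24 of 11981 genes were called, all of them higher (1743 in either direction at an unadjusted p under 0.05), so that the 5 falls were lost, and H2afx (adjusted p = 0.0895), Cdkn2c and Txnip (adjusted p = 0.187 for both) did not pass.

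Gm266 and H1f0 showed little association across cells. Among thinned T-ALL#1 cells, H1f0 was detected in 22.3% (20.7 to 24.0) of those with Gm266 and 20.7% (19.3 to 22.2) of those without. In T-ALL#2 both shares were 14.1%. The Pearson r between them was 0.004 over 5679 T-ALL#1 cells and -0.011 over 1975 T-ALL#2 cells, which share library and depth within each leukemia.

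Correlations with Gm266 were weak, and 4 of the 10 listed Notch genes were among the 10 highest of 4052 genes, by values that in T-ALL#2 depended on depth. Of 4052 genes found in at least 5% of thinned cells of both leukemias, 0 reached r = 0.1 with Gm266 in both, where 95% of genes lay within 0.062 of 0 in T-ALL#1 and 0.047 in T-ALL#2. Ordered by the smaller r, Notch1 came first, with r = 0.165 and 0.097, and was detected in 63.0% of Gm266 cells against 49.8% of others in T-ALL#1, and in 44.5% against 38.4% in T-ALL#2. It was followed by Agfg1 (0.14 and 0.09), Hdgfl3, the nonclassical MHC gene H2-T3 (0.21 and 0.09) and Mapkap1. The Notch targets Hes1 (0.08 in both) and Il2ra (0.15 and 0.08) came next, then Cdk5rap2, Dap and, last of the 10, Dtx1 (0.16 and 0.07). Myc, the only other listed Notch gene found in enough cells, had -0.00 and 0.00. Thinned to 1000 UMIs, Notch1, Hes1, Il2ra and Dtx1 had 0.09, 0.05, 0.08 and 0.10 in T-ALL#1. In T-ALL#2 they then had 0.03, -0.00, 0.02 and 0.00. The lowest were Tmsb10 (-0.13 and -0.08), Rpsa, Vim, Cd52 and Gzma, and vimentin (Vim) was found in 10.0% of Gm266 cells against 18.2% of others in T-ALL#1. Sparse counts limit these values, and they are a description.

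Correlations with H1f0 were weaker still. The highest were Gmfg (0.06 and 0.04), the replacement histone H3f3b (0.04 and 0.08), H2afx (0.06 and 0.04), Mpnd, Tpt1, Capns1, Smdt1, Bag6, Pold4 and the histone Hist1h4d. Its lowest were Hsp90ab1, the histone chaperone Nasp, the uracil glycosylase Ung, Isy1 and Prrc2b, at -0.06 or above. Of the Notch and cycling genes read beside these, Hes1, Notch1, Mki67 and Top2a had r between -0.02 and 0.02 with H1f0 in either leukemia, and Myc had 0.01 and -0.03. Dtx1 (-0.06 and 0.04) and Il2ra (-0.03 and 0.06) differed in sign between the leukemias.

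**Figure D4:**
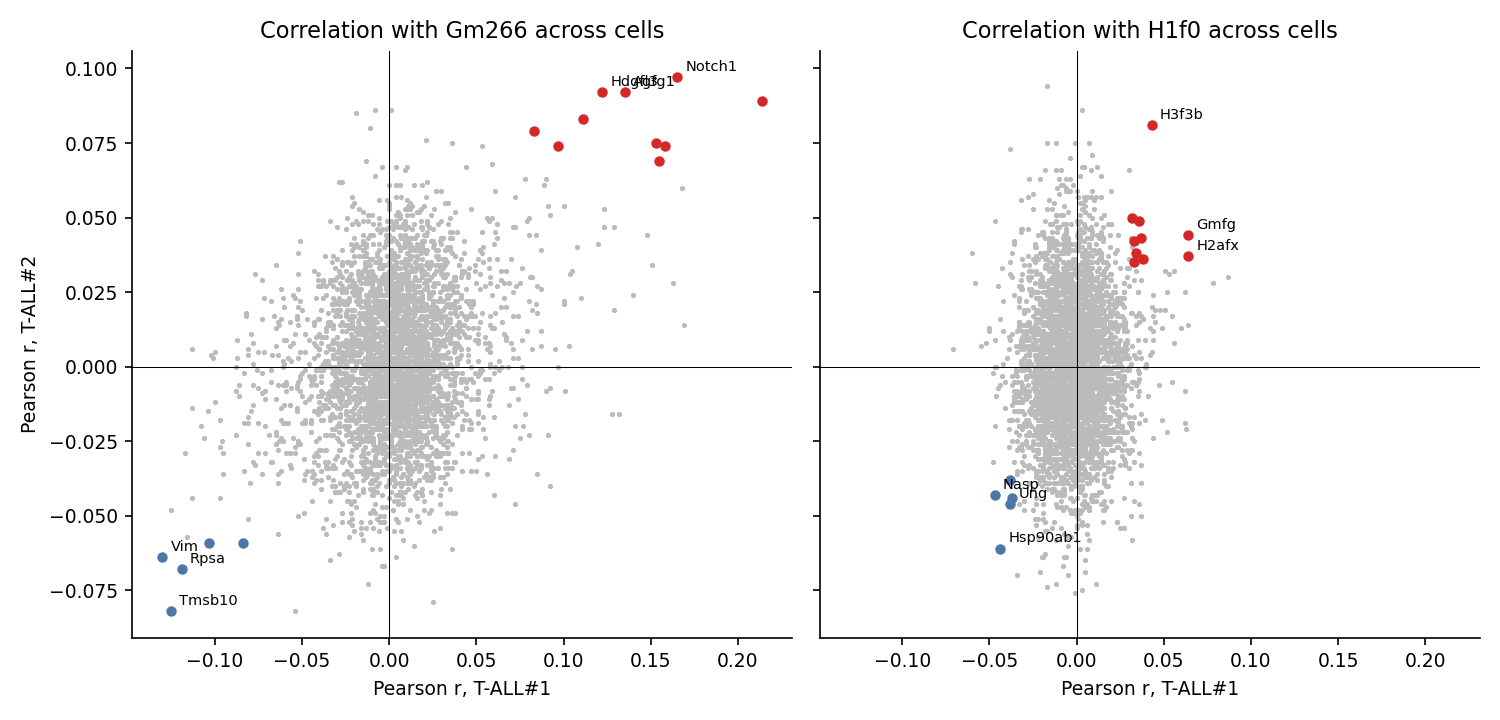
Pearson r of 4052 genes with Gm266 (left) and with H1f0 (right) across thinned cells of T-ALL#1 (x axis) and T-ALL#2 (y axis). Red points are the 10 genes with the highest and blue points the 5 with the lowest r in both. Notch1 comes first for Gm266 by the smaller r, at 0.165 and 0.097, while H2-T3 is higher in T-ALL#1 (0.21). No gene stands as far out in both for H1f0.

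Several genes beside Gm266 were also higher in the leukemias. The 11 genes overlapping it or nearest on each side were read. Since some of them held UMIs in the leukemias almost alone, their values are a description. Of the 10 with at least 10 UMIs over the libraries, 6 were at least 2-fold above preleukemic in both leukemias. The share over all such genes was 4.88%. Exoc3l4, whose product resembles a subunit of the exocyst complex for vesicle tethering, lies 52931 bases away and had 1 UMI in WT and 1 in the preleukemic library, but 2219 UMIs (31.4 CPM) in T-ALL#1 and 501 UMIs (13.8 CPM) in T-ALL#2, ratios of 1281 (230 to 50633) and 565 (101 to 22352). Tnfaip2, a gene induced by tumor necrosis factor, 29591 bases away, had 2 preleukemic UMIs and 8.03 and 2.32 CPM in the leukemias, and Gm40578, the noncoding gene around Gm266, had 0 UMIs in WT and preleukemic and 3.46 and 3.42 CPM in the leukemias, at least 47.2-fold and 46.6-fold higher at 3 UMIs for a count of 0. Lbhd2 was at 1.84 and 0.331 CPM against 0 preleukemic UMIs, and Gm10425, antisense within Exoc3l4, had 4 preleukemic UMIs and 21 and 8 leukemic ones, with an interval of its ratio in T-ALL#2 (0.604 to 10.2) that held 1. On the other side, the translation factor gene Eif5, 52193 bases away, was at 314 CPM before and 415 and 388 CPM in leukemia, and Mark3, a kinase gene, was at 78.8, 87.8 and 58.0 CPM. Farther on that side, the creatine kinase gene Ckb, 183538 bases away, was 4.02-fold (2.95 to 5.58) and 2.30-fold (1.61 to 3.34) above its preleukemic 1.15 CPM, but not 2-fold higher in both as a mean over cells, and Trmt61a was 1.93-fold and 1.54-fold higher, or 2.31-fold and 2.18-fold with TMM factors. Cdc42bpb, beyond Lbhd2, held 1 to 5 UMIs in every library, and Gm36635 held 1 or 2.

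Exoc3l4 was found in 7.34% (6.37 to 8.41) of thinned T-ALL#1 cells with Gm266 and 5.23% (4.47 to 6.08) of those without, and in 3.68% against 1.85% in T-ALL#2, with overlapping intervals in the latter. Tnfaip2, the nearer gene, was found in 1.42% against 1.33% in T-ALL#1 and 0.409% against 0.322% in T-ALL#2, with overlapping intervals in both. Reads of Gm266 and Gm40578, which overlap on the same strand, may have been counted for either gene.

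Of 7 neighbors of H1f0 with at least 10 UMIs over the libraries, 2 were at least 2-fold above their preleukemic level in both leukemias. They were the protein-coding Gcat and the noncoding Gm17753. The share over all such genes was 4.88%. Gcat, an enzyme of threonine breakdown, starts 370 bases after the end of H1f0 on the same strand, and was at 2.00 CPM (WT), 0.514 CPM (preleukemic), 12.1 CPM (T-ALL#1) and 16.9 CPM (T-ALL#2), 23.6-fold (15.3 to 38.3) and 32.9-fold (21.3 to 53.5) above preleukemic. Its order over the libraries was that of H1f0 except that T-ALL#2 exceeded T-ALL#1. The noncoding Gm17753 held 1 UMI in WT, 0 in the preleukemic library and 21 and 8 in the leukemias. Nol12 was 1.44-fold (1.38 to 1.51) and 1.14-fold (1.08 to 1.21) above its preleukemic level, and Triobp, Lgals1 and Ankrd54 were between 0.327-fold and 1.15-fold of theirs. Across thinned cells Gcat was no more frequent with H1f0 than without, at 1.48% against 1.59% in T-ALL#1 and 2.16% against 2.83% in T-ALL#2. Gcat had 15.2 CPM in cycling against 3.91 CPM in non-cycling T-ALL#1 cells, and 19.0 against 10.6 CPM in T-ALL#2 cells (fitted log2 difference 1.35, adjusted p = 0.627 by edgeR, and 1.33e-14 with the block), where H1f0 had no call in either fit. Whether transcripts of H1f0 run on into Gcat was not tested.

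**Figure D5:**
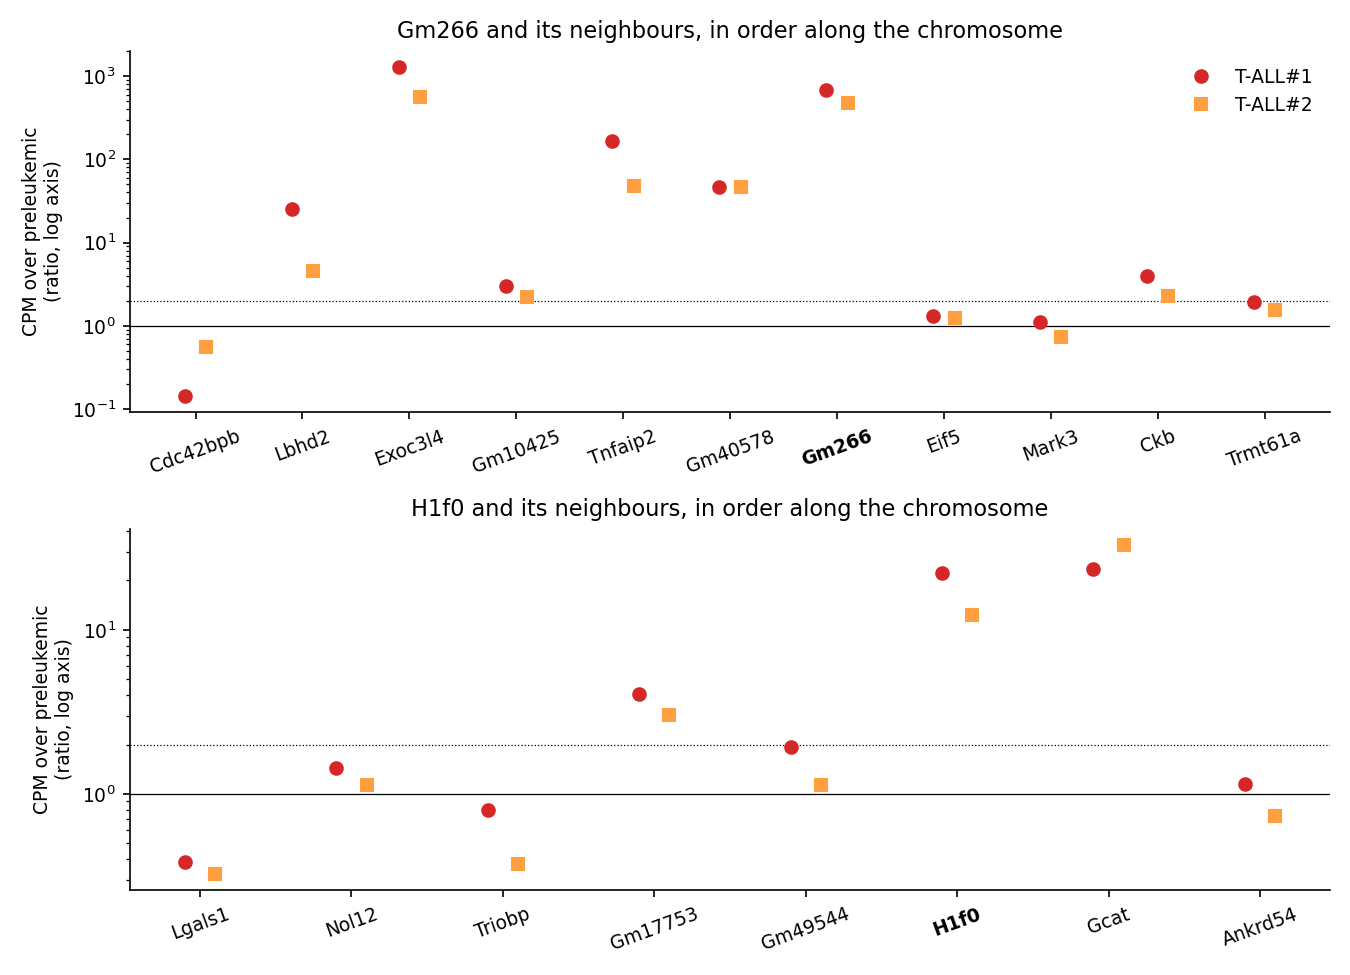
Ratio of the CPM in T-ALL#1 (circles) and T-ALL#2 (squares) to that in the preleukemic library, on a log axis, for Gm266 (top) and H1f0 (bottom) and their neighbors with at least 10 UMIs, in order along the chromosome. The solid line marks 1 and the dotted line 2, a preleukemic count of 0 was set to 3 UMIs, and ratios over 10 in both leukemias are those of Exoc3l4, Tnfaip2, Gm40578 and Gm266 at one locus and of H1f0 and Gcat at the other.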

How the data were processed

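Each library was a deposited 10x Genomics matrix of counts, the UMIs of each gene in each barcode, with no normalization, which the authors made by aligning to mm10 with Cell Ranger (per the file headers 3.0.2, and 4 for T-ALL#2). The paper names different versions of the assay chemistry and does not say which library used which, so the libraries may differ in it. T-ALL#2 holds all barcodes, and those with at least 3416 UMIs, 1/10 of the 99th percentile of the top 10000, were taken as cells. Doublets were not called. CPM are summed UMIs over the library's total, with exact Poisson intervals, and shares of cells carry Clopper-Pearson intervals, at 95%. A count of 0 was given a limit of 3 UMIs or cells, in levels, shares and ratios alike.

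UMIs summed per leukemia and state were tested with edgeR 4.0.16 (quasi-likelihood, TMM, genes with at least 1 UMI, Benjamini-Hochberg, threshold 0.05), checked on simulated data. In these, 71% of genes changed by log2 1 and 100% of those changed by log2 2 were recovered in the cycling contrast (17213 genes). The simulated counts varied less between sums than the real ones and held no difference between animals. Their changed genes were drawn from those with more UMIs. The shares recovered therefore check the code and do not give the recovery in the real data. Sums of a leukemia come from 1 animal, and its deviations correlated between sums at r = 0.85 (cycling, 3759 genes) and 0.841 (double-positive, 3833 genes), so the replicate numbers pair the sums. The main fit did not use this pairing, and the fit with the leukemia as a replicate block did. P-values rest on 2 animals. The genes that define a state were left out of its counts.

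The members and lists were chosen with earlier results of these data known. Genes named are the members, their neighbors and listed relatives, the genes ordered through the one after H1f0, the 10 highest and 5 lowest correlates, and up to 4 members of each other list with the lowest p. Alternatives covered filters, scaling, thinning, gates, DESeq2 1.42.0 and the replicate block.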

Additional observations from a re-analysis of the deposited data

Results flagged for a closer look

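H1f0 differed in sign between the single WT and preleukemic libraries by cycling. In WT the log2 of its CPM in cycling over non-cycling cells was 0.50 (0.27 to 0.74), and in the preleukemic library it was -0.74 (-1.13 to -0.36), with counting error alone in the intervals. With 1 animal each, the difference was not tested. It rested on 318 and 277 UMIs in WT and 87 and 174 UMIs in the preleukemic library, and it shrank to -0.08 in the latter when the cells were gated after thinning.

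Signal was present in empty droplets of T-ALL#2, outside the cells compared, where Gm266 was at 186 CPM and H1f0 at 55.7 CPM. Of the other genes read there, Cd4, Il2ra and Hes1 were at 75.7%, 72.3% and 83.9% of their levels in cells. Tal1, at 567 CPM, was at 242% of its level in cells. The part of free transcripts in the cell levels was not tested.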

How the results depend on the processing

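WT and preleukemic levels come from 1 animal each, so no alternative bears on the spread between animals. For library levels and shares, both leukemias stood above WT and the preleukemic library under every alternative run. TMM factors were 1.171, 1.131, 0.9452 and 0.7988 from WT to T-ALL#2. Of 143 alternative values of the main results, 110 were counted as the same. For levels, shares and log2 ratios this meant within the spread given, and for fitted differences an unchanged sign and call at 0.05. With a leukemia left out, a fitted difference counted as the same within the SD of the leukemias, whatever its sign. For counts of genes it meant a similar size. A change of sign within the spread of the leukemias was not counted, as for H1f0 by cycling (-0.05, or 0.08 with both Mki67 and Top2a required). For levels, shares and log2 ratios, leaving out either leukemia stays within the SD of their mean by construction. The level of Gm266 in the preleukemic library was 0.208 CPM as a mean over cells, and that of H1f0 was 8.17 CPM as such a mean, and 21.1 CPM in WT with TMM factors. Thinned shares move with depth by construction. At 1000 UMIs, 3000 UMIs and no thinning, the leukemic mean was 25.3%, 52.0% and 80.7% for Gm266 and 10.0%, 23.8% and 53.5% for H1f0, and H1f0 was at 2.30%, 5.41% and 7.91% in WT and 0.723%, 1.91% and 3.12% in the preleukemic library. The preleukemic Gm266 share was 0.0181% at 1000 UMIs and 0.0193% with an upper limit on genes.

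With cells gated after thinning, the log2 cycling difference of H1f0 was 0.17 in the leukemias and -0.08 in the preleukemic library, where it was -0.32 with both Mki67 and Top2a required. In non-cycling cells alone 4 genes reached r = 0.1 with Gm266. The count of cycling calls was 4339 with the replicate block, 24 with filterByExpr and 658 with DESeq2, against 408, and that of double-positive calls 2148 with the block, 0 with filterByExpr (775 at an unadjusted p under 0.05), 3 with DESeq2 size factors, 8 with DESeq2, 157 when thinned and 49 with Cd8b1 added, against 5. The block changed no call of Gm266 or H1f0. Thinned to 2000 UMIs, the double-positive difference was -0.07 for Gm266 and -0.11 for H1f0, opposite in sign to the fitted values, and the cause was not tested. Leaving out either leukemia in turn, the cycling difference of H1f0 ranged from 0.09 to 0.15 and that of Gm266 from -0.24 to -0.19, the double-positive differences from -0.13 to 0.19 and from -0.02 to 0.15, and the mean levels from 78.6 to 142 CPM and from 231 to 338 CPM.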

Other observations

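The 20 preleukemic UMIs of Gm266 lay in 8 cells, with 1 to 4 UMIs each and depths of 12809 to 32193 UMIs. All 8 were cycling by the UMIs of the whole cell, and none of their barcodes occurred in another library. The cycling call depended on depth. With gates set after thinning, Gm266 was at 1.00 CPM in cycling and 0.306 CPM in non-cycling preleukemic cells. Each held Tal1, Xist, Rag1, a recombinase subunit of thymocytes rearranging their receptor genes, and Cd8b1. H1f0, Hes1, Nrarp, Ptcra, Il2ra, Exoc3l4 and Tnfaip2 were at 0 UMIs in all 8, and the Notch target Dtx1 was found in 3 of them, at 33.3 CPM. Of the other 661 cycling preleukemic cells of at least their lowest depth, 16.0% held Dtx1 (11.5 CPM), 3.93% H1f0, 3.63% Hes1, 1.21% Nrarp, 9.23% Ptcra, 27.8% Il2ra, 56.0% Cd8b1 and 66.7% Rag1, and none Exoc3l4 or Tnfaip2, so that in 8 cells a count of 0 says little for most of these genes.

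Chosen after their values were seen, Ak5, a kinase of adenine nucleotides, was found in 6 of the 8 cells and in 7 of those 661 (1.06%), Pdlim4 in 8 of 8 and 33.3%, and Notch3 in 6 of 8 and 21.2%. Dap, among the genes that went with Gm266 in the leukemias, was found in 6 of 8 and 25.0%.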
